A study of Rattus norvegicus with 372 samples.

Results

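The urea cycle and the glutamine metabolism that accompanies it were followed in primary rat hepatocytes through 9 genes chosen by symbol, namely Cps1, Otc, Ass1, Asl, Nags, Slc25a15, Glul, Gls2 and Glud1. Counts were taken from every probe whose gene symbol was that of a member, and 7 of the 9 genes were found, with 1 probe each, among the 20946 genes of the whole transcriptome (WT) assay. Slc25a15 and Gls2 were not analysed here. All 7 genes passed a filter on low values, which asked for 10 or more counts on average over the wells, as did 10191 genes in all. The smaller ST assay, with probes for a selected set of 2604 genes, had 1 probe each for Cps1, Otc, Ass1 and Glul, and all 4 passed.

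The cells were hepatocytes of male Wistar rats, kept between layers of collagen and treated for 24 h in 0.5% DMSO. The 14 chemicals were each given at a low and a high concentration, which gave 28 treatments: acetaminophen (400 and 10000 µM), caffeine (400 and 10000 µM), chloramphenicol (18 and 450 µM), diclofenac (16 and 400 µM), doxorubicin (0.08 and 2 µM), indomethacin (12 and 300 µM), isoniazid (400 and 10000 µM), ketoconazole (0.6 and 15 µM), naproxen (80 and 2000 µM), ranitidine (160 and 4000 µM), simvastatin (2.4 and 60 µM), sulfasalazine (4 and 100 µM), valproic acid (400 and 10000 µM) and WY14643 (8 and 200 µM). Vehicle wells received 0.5% DMSO and media wells received culture medium alone. The medium of all groups held insulin, dexamethasone, epidermal growth factor and L-glutamine. Each of the 2 batches came from 1 rat, with 3 wells per treatment, so the wells of a batch are technical replicates and p-values over wells measure the spread between wells more than that between rats. Batch 1 had 3 vehicle and 3 media wells, all on 1 of its 2 plates, and 6 chemicals (acetaminophen, chloramphenicol, indomethacin, ketoconazole, sulfasalazine and WY14643) were on the plate without them. Batch 2 had 6 vehicle and 6 media wells, spread over both plates. Within a batch, all treatments therefore share the same few vehicle wells.

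In the liver, the urea cycle turns ammonia into urea, and it runs partly in the mitochondrion and partly in the cytosol of hepatocytes around the portal vein. Nags makes N-acetylglutamate, the activator that Cps1 needs, and Cps1 commits ammonia to the cycle as carbamoyl phosphate. Otc joins that product to ornithine to give citrulline, Ass1 adds aspartate to citrulline and Asl releases arginine from that product. Glul, glutamine synthetase, binds ammonia that the cycle leaves over and is made by the hepatocytes around the central vein, and Glud1, glutamate dehydrogenase, frees ammonia from glutamate. Valproic acid, an antiepileptic fatty acid that also inhibits histone deacetylases, is known for raising blood ammonia in patients.

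The WT libraries held 2709504 to 8948654 reads in batch 1 (median 6210462) and 2289425 to 8975207 reads in batch 2 (median 7220136), and the ST libraries held 558190 to 2210264 reads. No member was at 0 in any well, and the lowest count was 1 read of Otc. Levels are CPM, the count of a gene scaled to a fixed total of reads per well, and L2FC is the log2 fold change against vehicle from a fit of both batches with TMM scaling, given with its standard error and a p adjusted over all genes tested. A gene was called at an adjusted p under 0.05. With scaling by library totals in place of TMM the median L2FC of all genes lay beyond 0.1 in 10 of the 29 contrasts, from -0.43 under acetaminophen at 10000 µM to 0.27 under valproic acid at 10000 µM, and this scaling turned the sign of no called member but lost 6 of their calls. The 6 hepatocyte markers (Alb, Ttr, Apoa1, Serpina1, Tf and Fgb) together made up 37270 to 40540 CPM of the vehicle wells of batch 1 and 40090 to 44600 CPM of batch 2. The 6 Kupffer cell and leukocyte markers summed to at most 45.9 CPM in vehicle wells, the 5 stellate cell markers with a probe to at most 128 CPM, the 4 cholangiocyte markers to at most 49.0 CPM and the 5 endothelial markers to at most 6.32 CPM in any group. Of these markers 1, the cholangiocyte keratin Krt7, was at 0 in every vehicle well. Col3a1 was the only stellate marker past the filter on low values, and Epcam and Sox9 the only cholangiocyte markers. Of the Kupffer cell and leukocyte markers Cd68, Cd163, Clec4f and Csf1r passed, and no endothelial marker did. The sums of these lists therefore rest on few genes. Because RNA of a whole well was measured, fewer cells and less RNA per cell cannot be told apart.

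Levels in vehicle wells differed between the rats for some members. Otc in vehicle was at 34.4, 38.8 and 39.5 CPM in batch 1, and between 12.6 and 18.3 CPM (median 17.1) in batch 2. Ass1 in vehicle was at 167, 185.7 and 143 CPM in batch 1, and between 265 and 355 CPM (median 337) in batch 2. The Otc wells of batch 1 were all above those of batch 2, and the Ass1 wells of batch 1 were all below. Rat, library preparation and sequencing run changed together between the batches, so these differences were not tested. Cps1 in vehicle was at 380, 321 and 307 CPM in batch 1, and between 234 and 328 CPM (median 301) in batch 2. Nags in vehicle was at 23.1, 35.3 and 20.2 CPM in batch 1, and between 31.5 and 48.1 CPM (median 37.3) in batch 2. The batches overlapped for both genes. Asl in vehicle was at 53.5, 58.1 and 48.8 CPM in batch 1, and between 59.7 and 86.5 CPM (median 72.3) in batch 2. Asl was higher in batch 2, with no overlap. Glul in vehicle was at 30.4, 28.6 and 31.4 CPM in batch 1, and between 30.7 and 40.6 CPM (median 34) in batch 2. Glud1 in vehicle was at 70.4, 72.8 and 67.7 CPM in batch 1, and between 45.2 and 65.5 CPM (median 58.1) in batch 2. Glul overlapped between the batches and Glud1 was lower in batch 2.

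Of the 203 pairs of a member and a contrast with vehicle, 86 were called, 32 of them up and 54 down. At the high concentrations 65 of 98 pairs were called, 21 up (21.4%) and 44 down (44.9%), where 25.4% and 25.5% of all pairs of a gene and a treatment were called in those directions. At the low concentrations 18 of 98 pairs were called, 9 up (9.18%) and 9 down (9.18%), beside 4.9% and 4.5% of all pairs. The share called up at the high concentrations was slightly below that of all genes, while the share called down was above it. The members were chosen with earlier results of these data known, so these shares describe them and test nothing. The direction differed by enzyme. At the high concentrations Otc was called down under 11 of 14 chemicals and up under none, Cps1 down under 9 and up under 2, Glud1 down under 8 and up under 1, and Nags down under 6 and up under 1. Ass1 was called down in 8 and up in 3. Asl was called up in 9 and down in 1, and Glul up in 5 and down in 1. At the low concentrations Glul was not called under any chemical (edgeR, L2FC between -0.25 and 0.18, 1 of the 14 at an unadjusted p under 0.05, and 0 by DESeq2), and Cps1 was called most often, up under 3 chemicals and down under 2. The counts of members called per contrast ran from 0 (the low concentrations of acetaminophen, caffeine, chloramphenicol, diclofenac, isoniazid and ranitidine, with 2 of 42 pairs at an unadjusted p under 0.05 and 0 called by DESeq2) to all 7 (the high concentrations of acetaminophen and valproic acid).

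**Figure D1:**
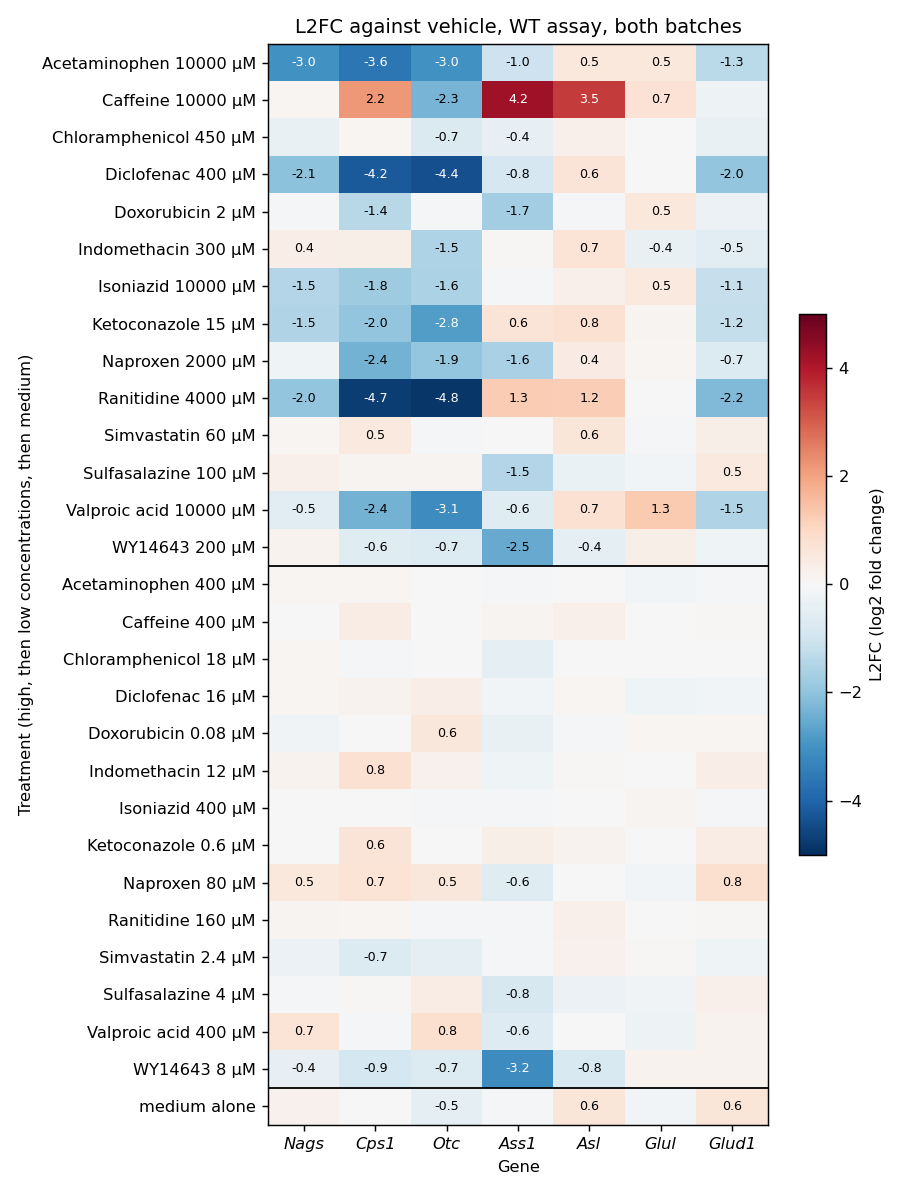
L2FC against vehicle of the 7 genes (columns) under the high concentrations, the low concentrations and medium alone (rows) by the WT assay, both batches. Red is higher and blue is lower than vehicle, and values are printed where the adjusted p is under 0.05. Cps1 and Otc reach -4.73 and -4.85 under ranitidine, whereas Ass1 and Asl reach 4.23 and 3.52 under caffeine.

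The stretches upstream of Cps1 and Otc, which fell together at most high concentrations, and of Ass1 and Asl, which rose under ranitidine while Cps1 and Otc fell, are shown so that the promoters of both pairs can be compared. Each is the RefSeq window of the rat assembly GRCr8 from 250 bases before to 50 bases after an annotated start, 5′ to 3′ on the gene's strand, with matches to the motifs searched in capitals. They lie at chr9:76063613-76063912 (+) for Cps1, chrX:15202424-15202723 (-) for Otc, chr3:35149480-35149779 (+) for Ass1 and chr12:32295658-32295957 (+) for Asl.
Cps1: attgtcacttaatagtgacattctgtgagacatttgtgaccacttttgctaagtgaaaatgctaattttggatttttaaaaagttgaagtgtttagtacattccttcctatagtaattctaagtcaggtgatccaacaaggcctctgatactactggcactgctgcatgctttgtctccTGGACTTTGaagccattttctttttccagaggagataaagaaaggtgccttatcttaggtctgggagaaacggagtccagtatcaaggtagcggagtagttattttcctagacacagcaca
Otc: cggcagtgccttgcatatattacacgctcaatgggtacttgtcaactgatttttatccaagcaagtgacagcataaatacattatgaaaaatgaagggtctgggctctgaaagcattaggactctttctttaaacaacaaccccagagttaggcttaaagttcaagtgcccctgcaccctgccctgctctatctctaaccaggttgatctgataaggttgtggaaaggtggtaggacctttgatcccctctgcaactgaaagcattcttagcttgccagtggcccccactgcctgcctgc
Ass1: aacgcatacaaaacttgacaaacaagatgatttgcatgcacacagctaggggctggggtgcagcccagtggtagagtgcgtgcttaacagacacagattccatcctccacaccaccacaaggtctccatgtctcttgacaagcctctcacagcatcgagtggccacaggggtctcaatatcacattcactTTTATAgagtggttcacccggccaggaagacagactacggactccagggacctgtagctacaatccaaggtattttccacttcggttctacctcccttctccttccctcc
Asl: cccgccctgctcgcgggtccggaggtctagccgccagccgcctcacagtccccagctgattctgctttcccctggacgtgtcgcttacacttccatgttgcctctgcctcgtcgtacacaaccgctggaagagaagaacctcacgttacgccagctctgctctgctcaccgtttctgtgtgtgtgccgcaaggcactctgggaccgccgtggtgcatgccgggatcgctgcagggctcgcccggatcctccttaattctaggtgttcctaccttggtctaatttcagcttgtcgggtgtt
The motifs, searched on both strands, were an HNF4-type direct repeat (CAAAGTNCA), the short CRE (TGACG), the full CRE (TGACGTCA, which contains the short one), a C/EBP-type site (TTGCNNAA), a direct repeat of AGGTCA spaced by 1 base, a TATA box (TATAAA) and a CCAAT box (CCAAT). Among 33469 rat promoter windows of this length, 1.24% held the HNF4-type repeat, 21.2% the short CRE, 1.83% the full CRE, 10.6% the C/EBP-type site, 0.0538% the AGGTCA repeat, 14.2% the TATA box and 37.5% the CCAAT box. The Cps1 window held the HNF4-type repeat on the minus strand (TGGACTTTG) at bases -71 to -63 from the start. The Ass1 window held a TATA box on the minus strand at bases -60 to -55, and the Otc and Asl windows held none of these letters. All 9 genes had a window in the table, 11 windows in all.

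Valproic acid at 10000 µM lowered Cps1, Otc and Glud1 and raised Asl and Glul in both batches. Otc was 8.76 times and Cps1 5.20 times lower than in vehicle, Glud1 was 2.83 times lower, and Glul was 2.48 times higher. All 7 members were called, 2 up and 5 down, in a contrast in which 33.5% of all tested genes were called up and 33.2% down. The median L2FC of the members was -0.61, beside -0.00249 for all genes tested.

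Cps1 stood at 81.8, 95.8 and 67.1 CPM in batch 1, and 43.8, 71.8 and 68.2 CPM in batch 2. Otc gave 3.16, 7.13 and 5.24 CPM in batch 1, and 0.935, 2.27 and 2.56 CPM in batch 2. Both were below every vehicle well of the same batch, and Otc was represented by few reads per well. Cps1 had an L2FC of -2.38 ± 0.18 (SE, adjusted p = 6.18e-27), and Otc one of -3.13 ± 0.22 (SE, adjusted p = 1.68e-29). Nags read 22.4, 26.2 and 31.2 CPM in batch 1, and 27.9, 29 and 28.8 CPM in batch 2. These wells overlapped vehicle in batch 1 and lay below it in batch 2. Nags had an L2FC of -0.51 ± 0.16 (SE, adjusted p = 0.00329), with an L2FC of -0.17 in batch 1 alone and -0.68 in batch 2 alone. The Nags call was lost when the wells of each rat were summed (adjusted p = 0.0902) and with scaling by library totals only (L2FC -0.24, adjusted p = 0.131).

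In the cytosolic part of the cycle the members went different ways. Ass1 had 198, 232 and 202 CPM in batch 1, and 156, 184 and 174 CPM in batch 2. The Ass1 wells were above vehicle in batch 1 and below it in batch 2. Ass1 had an L2FC of -0.61 ± 0.12 (SE, adjusted p = 6.25e-06), but batch 1 alone gave 0.16 (adjusted p = 0.392) and batch 2 alone -1.18 (adjusted p = 5.93e-14), and the difference between the batches was called (-1.36, adjusted p = 1.42e-08). Asl measured 92, 103 and 122 CPM in batch 1, and 165, 146 and 126 CPM in batch 2. Asl was above every vehicle well of both batches. Asl had an L2FC of 0.74 ± 0.13 (SE, adjusted p = 2.48e-07).

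Glul was at 105, 112 and 94.8 CPM in batch 1, and 68.8, 99.8 and 95.9 CPM in batch 2. Glud1 stood at 27.3, 31.8 and 27.2 CPM in batch 1, and 17, 23.9 and 27.5 CPM in batch 2. Glul was above and Glud1 below all vehicle wells of both batches. Glul had an L2FC of 1.31 ± 0.12 (SE, adjusted p = 5.67e-20), with 1.60 in batch 1 alone, 1.07 in batch 2 alone and 1.44 by the ST assay, which used a different Glul probe. Glud1 had an L2FC of -1.50 ± 0.17 (SE, adjusted p = 4.48e-14). When the high concentration of valproic acid was set against that of each of the 13 other chemicals, a comparison added after the values were seen, Glul was higher under valproic acid in all 13. The differences in L2FC ran from 0.57 ± 0.13 (SE, adjusted p = 6.52e-05) against caffeine to 1.70 ± 0.14 (adjusted p = 1.15e-23) against indomethacin. For the other members the valproic acid value was called both higher than some and lower than other chemicals. Cps1 and Otc were lower than under 9 of the 13 chemicals each, and higher than under 3 and 2. The share of all genes called in these 13 comparisons was not taken. The comparisons were not repeated with wells summed per rat.

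Beside these changes, the hepatocyte marker sum was 18630 to 22490 CPM in the batch 1 wells and 15750 to 17380 CPM in the batch 2 wells given 10000 µM valproic acid, below every vehicle well. The Kupffer cell and leukocyte markers summed to 18.3 to 19.7 and 12.8 to 14.0 CPM and the stellate markers to 17.2 to 22.8 and 4.98 to 7.49 CPM, all below vehicle, whereas the cholangiocyte markers (51.0 to 64.2 and 49.6 to 74.2 CPM) were above it. The endothelial markers (0.749 to 0.790 and 0.267 to 0.669 CPM) were below vehicle as well. The part of all these markers in the members' changes was not tested.

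At 400 µM valproic acid, 3 members were called, Nags and Otc up and Ass1 down, where 15.1% of all genes were called up and 14% down. Otc gave 63.1, 44.9 and 54 CPM in batch 1, and 27.4, 38 and 30.9 CPM in batch 2. Nags read 37.2, 48.7 and 45.4 CPM in batch 1, and 53.5, 57.9 and 64.5 CPM in batch 2. Both genes were above every vehicle well of their batch. Otc had an L2FC of 0.82 ± 0.17 (SE, adjusted p = 2.22e-05), and Nags one of 0.68 ± 0.15 (SE, adjusted p = 1.86e-04). Ass1 had 166, 120 and 119 CPM in batch 1, and 187, 173 and 172 CPM in batch 2. These overlapped vehicle in batch 1 and lay below it in batch 2. Ass1 had an L2FC of -0.65 ± 0.12 (SE, adjusted p = 7.08e-06). Of these calls only Nags stayed past the threshold when the wells were summed per rat. Cps1 measured 373, 194 and 278 CPM in batch 1, and 372, 247 and 221 CPM in batch 2. Glul was at 35.5, 20.9 and 26.7 CPM in batch 1, and 31.5, 20.6 and 23.7 CPM in batch 2. Both overlapped vehicle. Cps1 had an L2FC of -0.10 ± 0.16 (SE, adjusted p = 0.707), and Glul one of -0.25 ± 0.13 (SE, adjusted p = 0.130). Asl (L2FC 0.03) and Glud1 (0.16) were not called either. The hepatocyte marker sum, 38520 to 49550 CPM in batch 1 and 45960 to 48640 CPM in batch 2, overlapped vehicle in batch 1 and lay above it in batch 2. The Kupffer cell and leukocyte markers (53.1 to 54.2 and 22.5 to 24.0 CPM) were above vehicle in batch 1 and below it in batch 2, the stellate markers (117 to 129 and 31.1 to 45.0 CPM) overlapped it in both, and the cholangiocyte markers (22.1 to 31.7 and 27.6 to 36.2 CPM) were below it. Their part was not tested.

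Set directly against each other, the 2 concentrations of valproic acid differed for 6 of the 7 members, in a comparison that called 32.8% of all genes up and 32.5% down. From 400 to 10000 µM Otc changed by -3.95 (adjusted p = 2.31e-37), Cps1 by -2.28 (6.41e-24), Glud1 by -1.67 (6.63e-15) and Nags by -1.19 (6.96e-10) on the log2 scale. Glul changed by 1.57 (2.76e-21) and Asl by 0.71 (8.40e-06). For Ass1 the difference was 0.04 (0.798), with 0.42 in batch 1 alone and -0.39 in batch 2 alone. Otc thus lay above vehicle at 400 µM and below it at 10000 µM, whereas Nags lay above vehicle at 400 µM and at 10000 µM overlapped it in batch 1. Over all 14 chemicals, 64 of 98 pairs differed between the high and the low concentration, beside 40.8% of all pairs of a gene and a chemical, and 51 of the 64 stayed called with wells summed per rat.

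**Figure D2:**
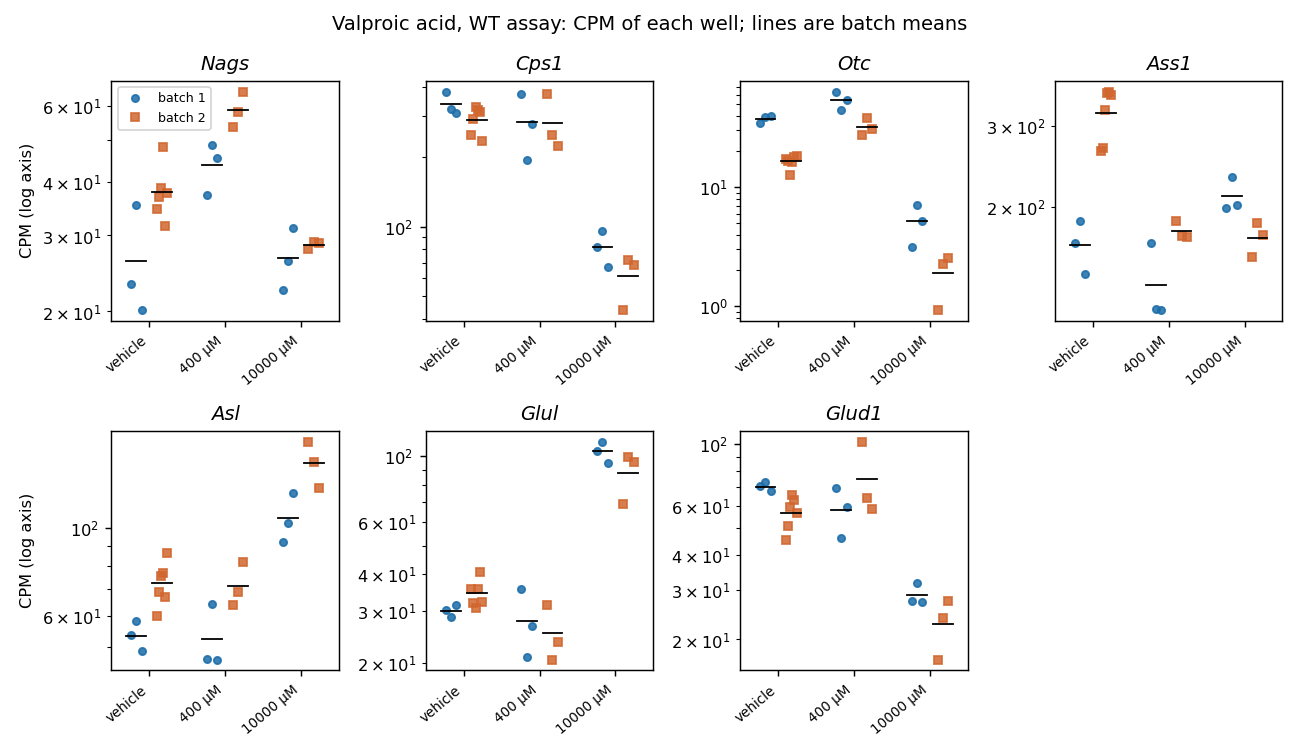
CPM on a log axis of each WT well in vehicle, 400 µM and 10000 µM valproic acid, 1 panel per gene, circles for batch 1, squares for batch 2 and lines for batch means. Cps1, Otc and Glud1 wells at 10000 µM lie below all vehicle wells of their batch, Glul and Asl wells above, and Ass1 wells above in batch 1 and below in batch 2.

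Caffeine at 10000 µM raised Ass1 18.7 times and Asl 11.4 times, and Cps1 rose with them, while Otc fell. Of the members 4 were called up and 1 down, beside 34.6% and 31.6% of all genes. Ass1 stood at 3758, 4231 and 4636 CPM in batch 1, and 3133, 4960 and 4374 CPM in batch 2. Asl gave 402, 503 and 647 CPM in batch 1, and 541, 829 and 1000 CPM in batch 2. Cps1 read 1392, 1319 and 1534 CPM in batch 1, and 1012, 1345 and 1053 CPM in batch 2. All wells of these genes were above vehicle. Ass1 had an L2FC of 4.23 ± 0.13 (SE, adjusted p = 3.24e-71), Asl one of 3.52 ± 0.14 (SE, adjusted p = 1.75e-57), and Cps1 one of 2.18 ± 0.16 (SE, adjusted p = 4.49e-28). Glul had 41.3, 40.6 and 39.2 CPM in batch 1, and 69.2, 60 and 49.8 CPM in batch 2. Otc measured 5.92, 8.66 and 3.05 CPM in batch 1, and 2.67, 2.92 and 4.46 CPM in batch 2. Glul was above and Otc below vehicle in both batches. Glul had an L2FC of 0.74 ± 0.12 (SE, adjusted p = 3.70e-08), and Otc one of -2.31 ± 0.21 (SE, adjusted p = 6.88e-21). Nags (0.10) and Glud1 (-0.26) were not called. The hepatocyte marker sum was 21330 to 23600 CPM in batch 1 and 17480 to 23620 CPM in batch 2, below vehicle. The Kupffer cell and leukocyte markers (10.1 to 12.9 and 5.64 to 14.2 CPM) and the stellate markers (19.8 to 26.8 and 4.71 to 6.95 CPM) were below vehicle in both batches, and the cholangiocyte markers overlapped it. Their part was not tested. At 400 µM caffeine no member was called.

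WY14643, an agonist of the fatty acid receptor Ppara, lowered Ass1 at both concentrations, and by L2FC Ass1 moved the furthest of the 7 members. At 8 µM 5 members were called, all down, in a contrast that called 28% of all genes up and 28.2% down. Ass1 was at 22.7, 17.9 and 18 CPM in batch 1, and 33.7, 21.3 and 26 CPM in batch 2. Asl stood at 35, 25.2 and 24.3 CPM in batch 1, and 35.5, 28.2 and 33.1 CPM in batch 2. Cps1 gave 112, 176 and 149 CPM in batch 1, and 99.5, 168 and 129 CPM in batch 2. Every well was below vehicle, and Ass1 was 8.92 times lower. Ass1 had an L2FC of -3.16 ± 0.14 (SE, adjusted p = 3.22e-48), Asl one of -0.75 ± 0.14 (SE, adjusted p = 2.02e-06), and Cps1 one of -0.86 ± 0.16 (SE, adjusted p = 2.22e-06). Otc read 14.7, 13.5 and 12.1 CPM in batch 1, and 9.44, 11.9 and 11.5 CPM in batch 2. Nags had 22, 21.9 and 20.8 CPM in batch 1, and 17.1, 20 and 18.5 CPM in batch 2. Otc was below vehicle in both batches, and Nags in batch 2 only. Otc had an L2FC of -0.70 ± 0.18 (SE, adjusted p = 5.07e-04), and Nags one of -0.41 ± 0.16 (SE, adjusted p = 0.0257), with 0.11 in batch 1 alone. Both calls were lost with wells summed per rat (adjusted p = 0.0556 for Otc and 0.237 for Nags). Glul (0.18) and Glud1 (0.19) were not called. At 200 µM 4 members were called, all down, where 26% of all genes were called up and 25.3% down. Ass1 was at -2.53 (adjusted p = 6.71e-40), Otc at -0.70, Cps1 at -0.61 and Asl at -0.44, of which Otc was lost with wells summed per rat (adjusted p = 0.0595). Against 8 µM, only Ass1 (0.63 higher, adjusted p = 0.00198) and Nags (0.59 higher, adjusted p = 0.0282) differed at 200 µM, and neither held with wells summed per rat. The hepatocyte marker sum at 8 µM (38300 to 38560 CPM in batch 1 and 37640 to 39670 CPM in batch 2) was within the range of vehicle in batch 1 and slightly below it in batch 2. At 200 µM it was 30790 to 33870 CPM in batch 1 and 34660 to 35740 CPM in batch 2, below every vehicle well, and its part was not tested. In batch 1 WY14643 and the vehicle wells were on different plates.

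**Figure D3:**
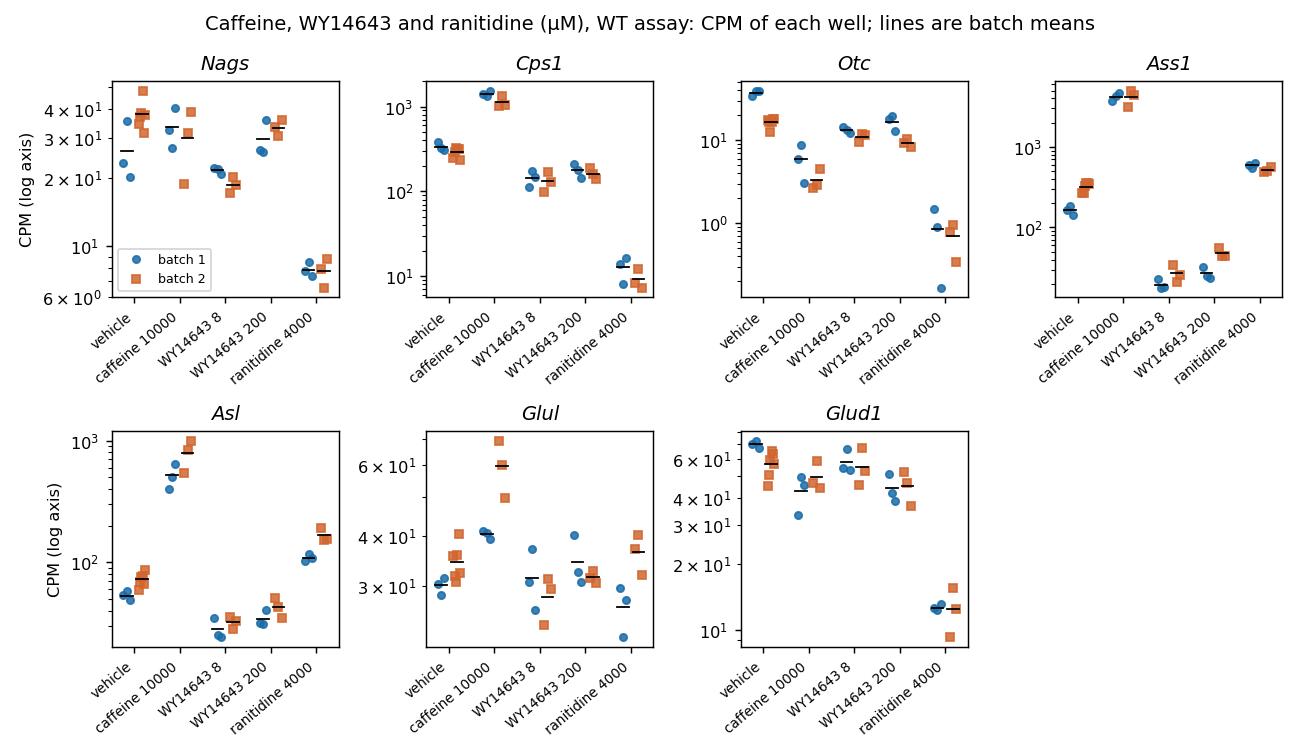
CPM on a log axis of each WT well in vehicle, caffeine 10000 µM, WY14643 8 and 200 µM and ranitidine 4000 µM, 1 panel per gene, circles for batch 1, squares for batch 2 and lines for batch means. Ass1 lies between 3133 and 4960 CPM under caffeine and between 17.9 and 33.7 CPM under WY14643 at 8 µM, and Cps1 between 7.33 and 16.4 CPM under ranitidine.

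Ranitidine at 4000 µM, a blocker of the histamine H2 receptor, gave the lowest Cps1 and Otc of all 28 treatments by L2FC. They were 26.5 and 28.8 times lower than in vehicle, while Ass1 and Asl rose. Of the members 2 were called up and 4 down, beside 32.3% and 33.9% of all genes. Cps1 measured 14.1, 8.17 and 16.4 CPM in batch 1, and 8.24, 12.2 and 7.33 CPM in batch 2. Otc was at 1.5, 0.888 and 0.167 CPM in batch 1, and 0.78, 0.957 and 0.344 CPM in batch 2. No well reached vehicle, and Otc came down to 1 read in 1 well. Cps1 had an L2FC of -4.73 ± 0.21 (SE, adjusted p = 5.47e-50), and Otc one of -4.85 ± 0.27 (SE, adjusted p = 7.44e-39). Nags stood at 7.79, 8.52 and 7.36 CPM in batch 1, and 7.91, 6.58 and 8.82 CPM in batch 2. Glud1 gave 12.6, 12.2 and 13.1 CPM in batch 1, and 9.25, 15.6 and 12.5 CPM in batch 2. Both were below vehicle in all wells. Nags had an L2FC of -1.99 ± 0.18 (SE, adjusted p = 4.18e-20), and Glud1 one of -2.20 ± 0.18 (SE, adjusted p = 1.33e-22). Ass1 read 600.5, 545 and 638 CPM in batch 1, and 485, 506 and 568 CPM in batch 2. Asl had 102, 117 and 109.5 CPM in batch 1, and 192, 153 and 156 CPM in batch 2. Every well of both genes was above vehicle. Ass1 had an L2FC of 1.28 ± 0.12 (SE, adjusted p = 2.12e-19), and Asl one of 1.21 ± 0.13 (SE, adjusted p = 1.38e-15). Glul was not called (0.03, adjusted p = 0.825). The hepatocyte marker sum was 13980 to 17790 CPM in batch 1 and 12000 to 13070 CPM in batch 2. The Kupffer cell and leukocyte markers (15.8 to 25.8 and 17.2 to 24.5 CPM) and the stellate markers (29.96 to 45.1 and 4.46 to 8.13 CPM) were below vehicle as well. The cholangiocyte markers were above every vehicle well in batch 1 (40.2 to 56.8 CPM) and below every one in batch 2 (19.7 to 25.3 CPM). The part of these markers was not tested. At 160 µM no member was called.

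Diclofenac at 400 µM and acetaminophen at 10000 µM each lowered Nags, Cps1, Otc, Ass1 and Glud1. Under diclofenac 1 member was called up and 5 down, beside 36% and 35.8% of all genes. Cps1 measured 11.5, 21.8 and 22.3 CPM in batch 1, and 25.5, 13.9 and 15.2 CPM in batch 2. Otc was at 0.698, 1.29 and 2.23 CPM in batch 1, and 1.1, 0.832 and 1.44 CPM in batch 2. Cps1 and Otc were 18.3 and 21.1 times lower than in vehicle, with no overlap. Cps1 had an L2FC of -4.20 ± 0.20 (SE, adjusted p = 2.19e-46), and Otc one of -4.40 ± 0.25 (SE, adjusted p = 2.92e-37). Nags stood at 5.06, 10.6 and 8.93 CPM in batch 1, and 9.77, 7.21 and 10.1 CPM in batch 2. Glud1 gave 8.2, 11.4 and 7.04 CPM in batch 1, and 28.6, 22.6 and 24.8 CPM in batch 2. Ass1 read 118, 124 and 147 CPM in batch 1, and 168, 174 and 194 CPM in batch 2. Nags and Glud1 were below vehicle in both batches, and Ass1 overlapped it in batch 1. Their L2FC were -2.06, -1.97 and -0.84, and Glud1 fell more in batch 1 (-3.03) than in batch 2 (-1.28, adjusted p of the difference = 1.82e-06). Asl had 81.8, 98.9 and 102 CPM in batch 1, and 118, 118 and 122 CPM in batch 2. Asl had an L2FC of 0.65 ± 0.13 (SE, adjusted p = 5.89e-06). Glul had an L2FC of -0.03. The hepatocyte marker sum, 7121 to 9445 CPM in batch 1 and 6987 to 8777 CPM in batch 2, was also far below vehicle, as were the cholangiocyte markers (4.36 to 9.52 and 5.92 to 8.88 CPM) and the Kupffer cell and leukocyte markers (29.01 to 30.5 and 20.25 to 22.1 CPM), while the stellate markers (68.5 to 80.6 and 16.1 to 21.4 CPM) overlapped it, and their part was not tested.

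Acetaminophen at 10000 µM called 2 members up and 5 down, beside 38.8% and 40.1% of all genes. Cps1 measured 17.6, 20.3 and 20.9 CPM in batch 1, and 21.3, 20 and 12.4 CPM in batch 2. Nags was at 3.57, 2.46 and 2.82 CPM in batch 1, and 2.52, 4.14 and 2.81 CPM in batch 2. No well overlapped vehicle, and Nags was lower here than under any other treatment by L2FC. Cps1 had an L2FC of -3.63 ± 0.19 (SE, adjusted p = 6.04e-41), and Nags one of -3.03 ± 0.21 (SE, adjusted p = 4.59e-30). Otc stood at 0.549, 2 and 1.61 CPM in batch 1, and 2.29, 3.08 and 2.14 CPM in batch 2. Ass1 gave 53.3, 84.5 and 60.6 CPM in batch 1, and 126, 127 and 104 CPM in batch 2. Glud1 read 13.5, 17.1 and 13.7 CPM in batch 1, and 24.3, 29.2 and 11 CPM in batch 2. These 3 genes were below vehicle too, with L2FC of -3.02, -1.05 and -1.33. Asl had 44.8, 59.8 and 54.2 CPM in batch 1, and 98.7, 119 and 39.9 CPM in batch 2. Glul measured 29.1, 36.1 and 32.6 CPM in batch 1, and 37.6, 45.5 and 31.4 CPM in batch 2. Both overlapped vehicle in CPM. With TMM scaling they were called up (L2FC 0.53 and 0.54), and with library totals only they were not (0.14, adjusted p = 0.296, and 0.13, adjusted p = 0.355). The median L2FC of all genes under acetaminophen was -0.019 with TMM and -0.43 with library totals. The stellate markers (12.6 to 28.99 CPM in batch 1 and 5.84 to 11.2 CPM in batch 2) and the cholangiocyte markers (14.3 to 32.4 and 20.3 to 30.6 CPM) were below every vehicle well. The Kupffer cell and leukocyte markers were below it in batch 1 (20.9 to 30.5 CPM) and overlapped it in batch 2 (18.8 to 33.8 CPM), and the part of these markers was not tested.

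Ketoconazole at 15 µM, an antifungal azole, called 2 members up and 4 down, beside 25% and 26.3% of all genes. Otc was at 4.36, 3.68 and 4.01 CPM in batch 1, and 2.78, 2.96 and 2.46 CPM in batch 2. Cps1 stood at 74.4, 88.8 and 57 CPM in batch 1, and 66.7, 63.4 and 101 CPM in batch 2. Both were below vehicle. Otc had an L2FC of -2.80 ± 0.21 (SE, adjusted p = 2.24e-25), and Cps1 one of -1.97 ± 0.17 (SE, adjusted p = 8.70e-21). Nags gave 11.9, 12.2 and 12.4 CPM in batch 1, and 9.96, 6.99 and 12.4 CPM in batch 2. Glud1 read 25.7, 27.5 and 19.7 CPM in batch 1, and 23.9, 23.8 and 31.1 CPM in batch 2. Nags (-1.52) and Glud1 (-1.20) fell in both batches. Ass1 had 369, 367 and 346 CPM in batch 1, and 374, 362 and 379.6 CPM in batch 2. Asl measured 75.6, 65.3 and 71.3 CPM in batch 1, and 161, 106 and 141 CPM in batch 2. Ass1 (0.63) and Asl (0.75) were above vehicle in every well. Batch 1 held no vehicle on the plate of ketoconazole, and in batch 2 the Ass1 call (0.30, adjusted p = 0.0237) was lost against vehicle of the same plate (0.15, adjusted p = 0.365). Glul was at 40.4, 43 and 35.5 CPM in batch 1, and 27.8, 26.9 and 29.4 CPM in batch 2. Glul was above vehicle in batch 1 (0.49) and below it in batch 2 (-0.22), and this difference was called (adjusted p = 0.0330).

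Isoniazid at 10000 µM called 1 member up and 4 down, beside 17.4% and 17.3% of all genes. Cps1 stood at 116, 102 and 84.7 CPM in batch 1, and 75.7, 106 and 67.3 CPM in batch 2. Otc gave 10.1, 13.9 and 10.5 CPM in batch 1, and 5.2, 5.93 and 6.37 CPM in batch 2. Both were below vehicle, with L2FC of -1.79 and -1.59. Nags read 10.7, 10.5 and 14.4 CPM in batch 1, and 12.1, 12.9 and 13 CPM in batch 2. Glud1 had 29.2, 27.4 and 23.6 CPM in batch 1, and 24.9, 37.7 and 28.5 CPM in batch 2. These genes fell as well, with L2FC of -1.46 and -1.14. Glul measured 45.4, 49.5 and 42.6 CPM in batch 1, and 43.7, 56.4 and 47.2 CPM in batch 2. Glul had an L2FC of 0.51 ± 0.12 (SE, adjusted p = 3.90e-04), which was lost with wells summed per rat (adjusted p = 0.0799). Ass1 had an L2FC of -0.07, and was called up in batch 1 alone (0.45, adjusted p = 0.0284) and down in batch 2 alone (-0.37, adjusted p = 0.00989).

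Naproxen, a non-steroidal anti-inflammatory drug, gave calls at both concentrations. At 2000 µM 1 member was called up and 4 down, beside 27.6% and 26.2% of all genes. Cps1 was at 51.2, 46.6 and 37.9 CPM in batch 1, and 64.3, 75.6 and 75.3 CPM in batch 2. Otc stood at 6.27, 7.79 and 9.98 CPM in batch 1, and 3.83, 4.26 and 6.46 CPM in batch 2. Ass1 gave 64.2, 72 and 44.3 CPM in batch 1, and 96.3, 115 and 97.2 CPM in batch 2. These were below vehicle, with L2FC of -2.36, -1.95 and -1.63. Glud1 read 38.4, 28.7 and 35.2 CPM in batch 1, and 36.5, 39.1 and 48.5 CPM in batch 2. Asl had 67.5, 60.1 and 61.6 CPM in batch 1, and 108, 109.5 and 91.3 CPM in batch 2. Glud1 (-0.68) fell and Asl (0.40) rose, Glud1 with overlap in batch 2. At 80 µM 4 members were called up and 1 down, beside 8.64% and 7.4% of all genes. Cps1 measured 507, 478 and 422 CPM in batch 1, and 484, 461 and 419.6 CPM in batch 2. Glud1 was at 109, 97.9 and 84.6 CPM in batch 1, and 104, 96.7 and 102 CPM in batch 2. Every well was above vehicle, with L2FC of 0.69 and 0.81. Otc stood at 42, 42.6 and 38.4 CPM in batch 1, and 21.6, 21.4 and 36.2 CPM in batch 2. Nags gave 38.9, 42.4 and 40.5 CPM in batch 1, and 51.2, 39.5 and 53.2 CPM in batch 2. Ass1 read 105, 106 and 108 CPM in batch 1, and 232, 229 and 183 CPM in batch 2. Otc (0.55) and Nags (0.54) were called up, each overlapping vehicle in 1 batch, and Ass1 (-0.59) was called down. With wells summed per rat no member was called at 80 µM naproxen (edgeR, 4 of 7 at an unadjusted p under 0.05).

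Simvastatin, sulfasalazine, doxorubicin, indomethacin and chloramphenicol had between 2 and 5 members called at their high concentrations. Simvastatin at 60 µM was called up for Asl (0.62) and Cps1 (0.48), beside 11.4% of all genes up and 12.5% down, and at 2.4 µM down for Cps1 (-0.69), beside 1.13% and 1.28%. Sulfasalazine at 100 µM lowered Ass1 (-1.47) and raised Glud1 (0.47), and at 4 µM Ass1 (-0.78) was called down. At these concentrations 21.3% and 9.35% of all genes were called up and 19.6% and 8.03% down. Doxorubicin at 2 µM lowered Ass1 (-1.75) and Cps1 (-1.37), and Glul was called up (0.52), where 9.07% of all genes were called up and 10.3% down. The Kupffer cell and leukocyte markers (4.00 to 7.43 CPM in batch 1 and 4.35 to 7.86 CPM in batch 2) and the stellate markers (8.01 to 13.1 and 2.00 to 2.58 CPM) were far below vehicle there, while the cholangiocyte markers (28.1 to 34.7 and 38.2 to 44.9 CPM) overlapped it, and their part was not tested. Indomethacin at 300 µM lowered Otc (-1.53), Glud1 (-0.52) and Glul (-0.39), the 1 high concentration at which Glul was called down, and raised Asl (0.69), and Nags was called up (0.35, adjusted p = 0.0488) with 0.89 in batch 1 alone and -0.040 in batch 2 alone. That contrast called 27.1% of all genes up and 27.6% down, and the Kupffer cell and leukocyte (16.4 to 21.7 and 11.8 to 13.7 CPM), stellate (32.8 to 49.1 and 9.51 to 10.9 CPM) and cholangiocyte markers (16.0 to 17.9 and 16.7 to 24.7 CPM) were below every vehicle well. Chloramphenicol at 450 µM was called for Otc (-0.71) and Ass1 (-0.41), beside 16.1% of all genes up and 17.2% down, and neither held with wells summed per rat. Of the other calls in this group of chemicals, Asl at the high concentration of simvastatin, Ass1 at that of sulfasalazine, Ass1 and Cps1 under doxorubicin and Otc and Asl under indomethacin held with wells summed per rat, and those at the low concentrations did not. At the high concentrations Cps1 under simvastatin (adjusted p = 0.250), Glud1 under sulfasalazine (0.311), Glul under doxorubicin (0.151), and Nags (0.131), Glud1 (0.115) and Glul (0.156) under indomethacin were lost in the same way. In batch 2 the Asl call under indomethacin was lost against vehicle of the same plate (0.51, adjusted p = 0.0619). Low concentrations of indomethacin (Cps1 0.75), ketoconazole (Cps1 0.63) and doxorubicin (Otc 0.58, with -0.31 in batch 1 alone and 1.21 in batch 2 alone) gave 3 more calls, all up, also lost with wells summed per rat. Of all genes 3.53%, 0.844% and 1.08% were called up in these contrasts and 2.34%, 0.775% and 0.245% down.

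In medium alone, without DMSO, Asl (0.60) and Glud1 (0.61) were called up and Otc (-0.47) down, beside 7.51% and 5.1% of all genes. Asl had 61.7, 64.5 and 55.8 CPM in batch 1, and between 99.5 and 132 CPM (median 113) in batch 2. Glud1 measured 93.4, 116 and 132 CPM in batch 1, and between 53.3 and 103 CPM (median 71.7) in batch 2. Otc was at 23.8, 28.5 and 27.9 CPM in batch 1, and between 8.15 and 16.6 CPM (median 10.6) in batch 2. Asl overlapped vehicle in batch 1, and Glud1 and Otc overlapped it in batch 2. None of the 3 media calls held with wells summed per rat (edgeR, 2 of 7 members at an unadjusted p under 0.05).

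The hepatocyte marker sum moved with many of these changes. It was 23300 to 26690 CPM in batch 1 and 27050 to 36390 CPM in batch 2 under acetaminophen, 19790 to 20610 and 21120 to 23290 CPM under ketoconazole, 27960 to 30630 and 25220 to 30420 CPM under isoniazid, and 19990 to 21050 and 19930 to 20880 CPM under naproxen at their high concentrations, all below vehicle. It was also below every vehicle well under doxorubicin (29250 to 31710 and 25830 to 30780 CPM), indomethacin (26300 to 29360 and 23590 to 27660 CPM) and chloramphenicol (22630 to 31110 and 22670 to 24400 CPM) at their high concentrations, whereas simvastatin at 60 µM (39170 to 42200 and 39320 to 44270 CPM) overlapped vehicle in both batches and sulfasalazine at 100 µM (43650 to 44930 and 41600 to 45250 CPM) was above it in batch 1 and overlapped it in batch 2. Over the 14 high concentrations the Kupffer cell and leukocyte markers summed to 4 to 80.6 CPM in batch 1 and 4.35 to 33.8 CPM in batch 2, the stellate markers to 8.01 to 132 CPM in batch 1 and 2 to 42.2 CPM in batch 2 and the cholangiocyte markers to 4.36 to 64.2 CPM in batch 1 and 5.92 to 74.2 CPM in batch 2. Vehicle gave 37.5 to 45.9 and 25.8 to 35.7 CPM, 77.9 to 128 and 20.2 to 32.7 CPM, and 33.1 to 39.1 and 39.0 to 49.0 CPM for these lists. Naproxen at 2000 µM was below every vehicle well for all 3 lists (25.5 to 29.8 and 12.9 to 18.25 CPM, 60.7 to 68.0 and 10.4 to 15.5 CPM, and 11.45 to 16.2 and 9.69 to 12.2 CPM). Isoniazid at 10000 µM was below it for the stellate markers (47.2 to 69.96 and 12.4 to 19.4 CPM), and chloramphenicol at 450 µM (18.2 to 32.1 and 23.0 to 31.0 CPM) and WY14643 at 200 µM (22.7 to 30.6 and 33.3 to 35.8 CPM) for the cholangiocyte markers. In batch 2 but not in batch 1 the Kupffer cell and leukocyte markers were below vehicle under isoniazid (22.4 to 25.2 CPM), ketoconazole at 15 µM (20.3 to 24.4 CPM) and simvastatin at 60 µM (17.2 to 24.3 CPM), and under simvastatin the stellate (36.98 to 42.25 CPM) and cholangiocyte markers (54.4 to 62.9 CPM) were above it. In batch 1 but not in batch 2 the stellate markers were below vehicle under ketoconazole (67.5 to 76.8 CPM) and the cholangiocyte markers under sulfasalazine at 100 µM (26.1 to 32.7 CPM). Otherwise these lists overlapped vehicle under those 6 chemicals. The endothelial markers summed to 2.32 to 3.51 CPM in vehicle of batch 1 and 1.67 to 3.81 CPM in batch 2. They were below every vehicle well of both batches under doxorubicin, indomethacin, ketoconazole, naproxen, ranitidine and valproic acid at the high concentrations. The part of other cell types in the members' values was not tested.

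Other genes that feed or drain the cycle were counted in lists chosen by function, to be read beside all genes tested, of which valproic acid called 33.5% up and 33.2% down at 10000 µM and 15.1% up and 14% down at 400 µM. The lists were chosen with earlier results of these data known, so their counts describe them and test nothing. The gene with the most calls in each list was picked for that count, and no such count over all genes was taken. Of 11 genes of nitrogen supply (mitochondrial carbonic anhydrases, aspartate and glutamate carriers, transaminases and the sirtuins Sirt3 and Sirt5), 5 were called up and 6 down at 10000 µM valproic acid (median L2FC -0.31), and 8 up and 0 down at 400 µM (median 0.62). With wells summed per rat, 4 up and 5 down were called at 10000 µM and 6 up at 400 µM. Car5a, the carbonic anhydrase that supplies bicarbonate to Cps1, averaged 14.7 ± 2.35 CPM (SD, n = 3) and 18.2 ± 2.54 CPM (n = 6) in vehicle of batches 1 and 2. At 10000 µM it averaged 1.21 ± 0.657 and 0.937 ± 0.229 CPM (n = 3 each), an L2FC of -4.32 ± 0.25 (adjusted p = 2.73e-37). Car5b, its relative, went the other way (2.44 ± 0.22, adjusted p = 7.52e-21), and was also higher at 400 µM (0.93 ± 0.24, adjusted p = 0.00114). Gpt, alanine transaminase, was higher at 400 µM (0.98 ± 0.16, adjusted p = 1.32e-07) and was among the genes called most often, up in 9 and down in 8 of the 29 contrasts.

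Of 12 genes tested for glutamine transport and use, 5 were called up and 4 down at 10000 µM (median -0.19), where 33.5% and 33.2% of all genes were, and 0 up and 4 down at 400 µM (median -0.28). With wells summed per rat, 4 up and 3 down were called at 10000 µM and 1 down, Cad, at 400 µM. Slc1a5, a glutamine importer, averaged 6.89 ± 1.42 and 3.32 ± 1.40 CPM (SD) in the 3 and 6 vehicle wells of batches 1 and 2. It averaged 46.7 ± 2.94 and 36.9 ± 1.49 CPM at 10000 µM, an L2FC of 2.88 ± 0.23 (adjusted p = 6.60e-25). Slc7a6, which exchanges basic amino acids, rose by 2.22 ± 0.19 (adjusted p = 1.58e-22). At 400 µM the largest changes were those of Cad, which opens pyrimidine synthesis (-0.99 ± 0.23, adjusted p = 1.90e-04), and of the transporter Slc7a5 (-0.80 ± 0.25, adjusted p = 0.00785). Over the 29 contrasts Slc1a5, the gene of this list with the most calls, was called up in 6 and down in 8.

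Of 9 tested genes of arginine, ornithine and proline fates, 2 were called up and 4 down at 10000 µM (median -0.055), beside the same 33.5% and 33.2%, and 3 up and 3 down at 400 µM (median 0.13). With wells summed per rat, all 6 calls held at 10000 µM, while at 400 µM the 3 up held and the 3 down were lost. Odc1, which decarboxylates ornithine, fell at 10000 µM (-1.01 ± 0.10, adjusted p = 8.11e-17), as did Prodh2, the enzyme of hydroxyproline breakdown (-0.98 ± 0.16, adjusted p = 2.28e-08). Oat, ornithine aminotransferase, rose at 400 µM (1.81 ± 0.19, adjusted p = 3.93e-16), and so did Prodh2 (1.03 ± 0.15, adjusted p = 2.20e-09). The arginine transporter Slc7a2 was called in 17 contrasts, up in 11 and down in 6, with its highest L2FC under caffeine (3.67).

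Of 5 tested genes known as pericentral companions of Glul, 0 were called up and 2 down at 10000 µM valproic acid (median -0.94), where 33.5% and 33.2% of all genes were called and Glul itself was up. These were Tbx3, a transcription factor (-1.66 ± 0.23, adjusted p = 8.78e-11), and Rhbg, an ammonia channel (-0.94 ± 0.16, adjusted p = 3.98e-08). At 400 µM 2 were called up and 1 down (median 0.67), with Oat and Tbx3 (1.12 ± 0.19, adjusted p = 2.92e-07) up and Rhbg (-0.54 ± 0.15, adjusted p = 0.00342) down. The Rhbg call at 400 µM was lost with wells summed per rat (adjusted p = 0.0514). Tbx3 was called up in 10 and down in 6 contrasts. Of the 2 tested channel genes, Rhbg and Aqp9, 1 was called at each concentration, and Aqp9, which carries water and urea, was called down in 14 contrasts and up in 0, lowest under 8 µM WY14643 (-2.72).

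Of 9 genes tested that are known to regulate the cycle, 1 was called up and 6 down at 10000 µM (median -0.43), and 6 up and 0 down at 400 µM (median 0.75), beside 33.5% and 33.2% of all genes at 10000 µM and 15.1% and 14% at 400 µM. With wells summed per rat, 1 up and 4 down were called at 10000 µM and 5 up at 400 µM. Gcgr, the glucagon receptor, averaged 125 ± 14.3 CPM (SD, n = 3) and 91.7 ± 4.40 CPM (n = 6) in vehicle and 22.5 ± 2.32 and 19.4 ± 2.82 CPM (n = 3 each) at 10000 µM, an L2FC of -2.59 ± 0.17 (adjusted p = 1.29e-30). Ppara, the fatty acid receptor, fell at 10000 µM (-1.67 ± 0.23, adjusted p = 4.58e-11) and rose at 400 µM (1.23 ± 0.20, adjusted p = 1.35e-07). Cebpa, a hepatocyte transcription factor, rose at 400 µM (1.07 ± 0.12, adjusted p = 8.26e-14) and was the 1 gene of this list called up at 10000 µM (0.56). Foxo1, a target of insulin signalling, was called most often among the regulators, up in 9 and down in 7 contrasts.

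Profiles across the 30 groups (28 treatments, vehicle and media) were compared between genes. Pearson's r was taken over group means of log2 CPM within a batch and averaged over the batches. These groups share rats, runs and the length of treatment, so r is a description. Cps1 followed Glud1 (0.85 in batch 1 and 0.85 in batch 2), Nags (0.81 and 0.82) and Otc (0.79 and 0.71), but hardly Ass1 (0.25 and 0.30). Ass1 followed Asl (0.83 and 0.85), and Otc ran against Asl (-0.49 and -0.54). Glul had r between -0.36 and 0.47 with the other members in either batch, highest with Asl. Outside the list, the 5 genes with the highest r to Cps1 included Fam20a (0.910), Pfkfb1 (0.904) and Edem1 (0.879). For Glul the 5 were Lrrc3 (0.803), Rab37 (0.798), Klhl2 (0.793), Hat1 (0.790) and LOC100912195 (0.788), and rank correlations were lower for Lrrc3 (0.432), Rab37 (0.322) and LOC100912195 (0.458). These 3 genes averaged between 0.602 and 1.18 CPM in the vehicle wells of a batch and between 23.8 and 38.5 CPM at 10000 µM valproic acid, the group in which Glul was highest. Over the groups other than valproic acid at 10000 µM, which were chosen after the values were seen, their r to Glul was between 0.545 and 0.559, while that of Klhl2 was 0.708 and that of Hat1 0.653. For Fam20a, Pfkfb1 and Edem1 the r to Cps1 over those groups was 0.918, 0.903 and 0.886.

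Lysate of the same wells was also run by the ST assay, which is not independent of the WT assay. Of the 86 called pairs 53 had an ST probe, and all 53 had the same sign in both assays, with 49 called by ST. The share of all called genes with the same sign in both assays was not taken. Over the 29 contrasts 34.3% of all pairs of a gene and a contrast were called by ST. Of the pairs of the 4 members 54 were called, 37 of 56 at the high concentrations, 16 of 56 at the low ones and 1 of 4 in medium alone. At 10000 µM valproic acid, where ST called 34.9% of its genes up and 35.4% down, Cps1, Otc and Ass1 were called down and Glul up. At 400 µM, ST called Glul down (-0.37, adjusted p = 0.024), which WT did not.

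Of the 86 called pairs, 81 had the same sign in both batches and 62 were called in each batch alone. These pairs were picked by the fit of both batches together, which favours equal signs. The same shares over all called pairs of a gene and a contrast were not taken. When the wells of each rat were summed, so that each group had 1 value per rat, 58 remained called. The change differed between the rats in 14 of 203 pairs (6.9%), whereas 2.36% of all pairs of a gene and a contrast were called in that test. These were 9 contrasts of Ass1, 3 of Otc, 1 of Glul and 1 of Glud1, 11 of them at high concentrations. In 7 of the 14 the L2FC had opposite signs in the rats. For acetaminophen, chloramphenicol and ketoconazole, which in batch 1 were on the plate without vehicle wells, plate cannot be told apart from rat. Cps1, Asl and Nags had no contrast called in this test (edgeR, 10 of 87 at an unadjusted p under 0.05). Vehicle wells of the 2 plates of batch 2 showed no called member (edgeR, 0% of all genes called, 1 of 7 members at an unadjusted p under 0.05), the largest difference being 0.32 for Ass1 (adjusted p = 0.279).

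**Figure D4:**
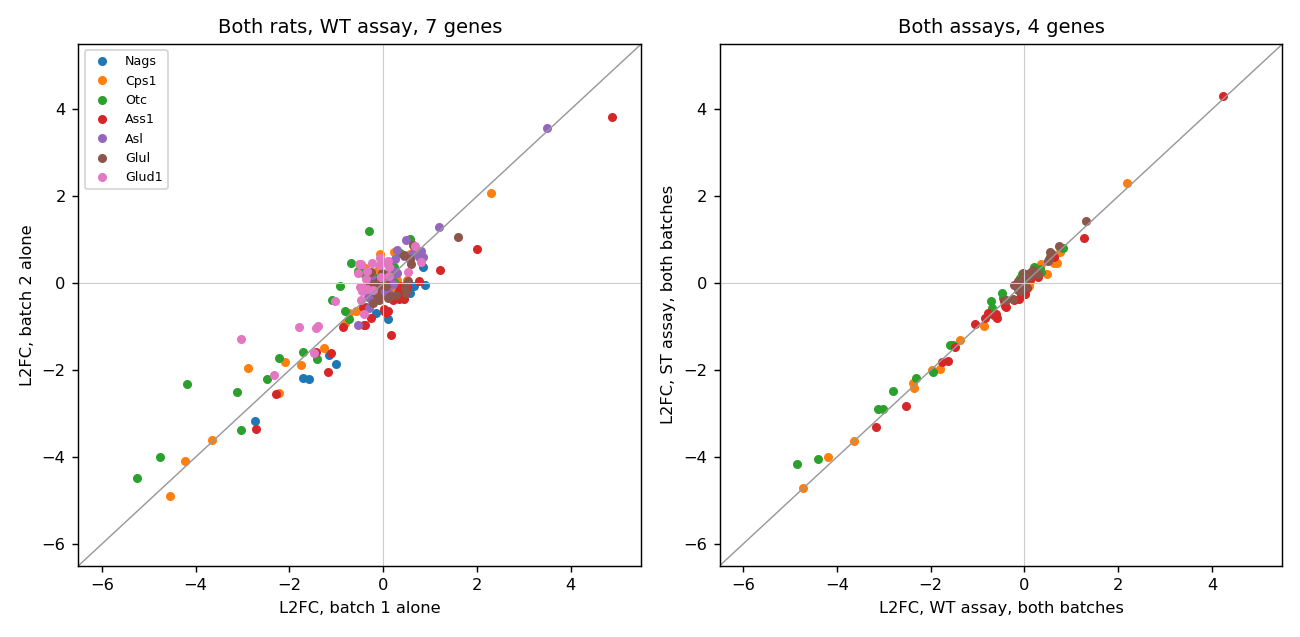
L2FC of each member and contrast in batch 2 alone against batch 1 alone (left, WT assay, 7 genes) and by the ST assay against the WT assay (right, both batches, 4 genes), coloured by gene, with the line of equal values. Points of the assays lie close to the line, while Ass1 under valproic acid at 10000 µM is at 0.16 in batch 1 and -1.18 in batch 2.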

How the data were processed

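Transcripts were counted by TempO-Seq, in which pairs of detector oligos that meet on a transcript are ligated and sequenced, in 186 wells by the ST and by the WT assay. The authors aligned reads to rat genome rn6 with STAR 2.5.3a and deposited, for each well, how many reads each probe received, as whole counts that were not normalized. All value columns were assigned to a well by its label (0 were left out).

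The members and gene lists were chosen with earlier results of these data known. Columns whose name before the probe number was a gene's symbol, in any case, were added, and genes that averaged 10 or more counts over the wells of an assay were kept (10191 by WT, 1760 by ST). All groups were fitted together by edgeR 4.0.16 (quasi-likelihood) in R 4.3.3, with limma 3.58.1 and the data.table package (1.17.8), with TMM normalization and batch as a block, since each batch is 1 rat and 1 sequencing run. Each treatment was compared with vehicle, and p was adjusted by Benjamini-Hochberg within a contrast. The batch by treatment test used cell means of group and batch. The fit was tested on simulated data. Wells of a batch are technical replicates, so wells summed per rat were fitted as an alternative, beside DESeq2 1.42.0, RLE size factors, library totals, other filters, each batch alone, vehicle of the same plate, no batch term, a minimum absolute L2FC of 1 and each replicate left out in turn. The comparison of valproic acid with the other chemicals was added after the data were seen. Correlations used log2 CPM with a pseudocount of 1.

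All members are named except 1 of the 10 listed, and this gene and 3 others that the rules below would name or count are not reported here. From each list, up to 2 genes are named per concentration of valproic acid, those with the largest absolute L2FC among genes called with the same sign in both batches, and the gene with the most calls over the 29 contrasts, and the 5 genes with the highest r to Cps1 and to Glul. Names beyond these were chosen after their values were seen. Promoter windows are from RefSeq (GRCr8), a different build from that of the counts. Depth sets the precision of low levels, such as Otc.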

Additional observations from a re-analysis of the deposited data

Results flagged for a closer look

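In 1 of 22 tests of a group of wells for an outlying value, the lowest stood apart. Otc in the 6 vehicle wells of batch 2 was 12.6 CPM in the lowest well and 16.4 to 18.3 CPM in the others. Chance alone gives about 1 such well in 20 groups.

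The L2FC differed between the rats, by the test of batch and treatment, in 9 contrasts of Ass1, 3 of Otc, 1 of Glul and 1 of Glud1. Ass1 was called for valproic acid at 10000 µM (0.16 in batch 1 and -1.18 in batch 2), caffeine at 10000 µM (4.89 and 3.81), ranitidine at 4000 µM (2.00 and 0.78), ketoconazole at 15 µM (1.22 and 0.30), doxorubicin at 2 µM (-1.19 and -2.05) and 0.08 µM (0.10 and -0.63), isoniazid at 10000 µM (0.45 and -0.37), diclofenac at 400 µM (-0.40 and -0.96) and chloramphenicol at 18 µM (0.06 and -0.69). In each of these the value was lower in batch 2, the rat whose vehicle wells held more Ass1.

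Otc was higher in batch 2 under acetaminophen at 10000 µM (-4.18 and -2.31) and under doxorubicin at 2 µM (-0.68 and 0.46) and 0.08 µM (-0.31 and 1.21). Glul under ketoconazole was at 0.49 and -0.22, and Glud1 under diclofenac at -3.03 and -1.28. Rat, library preparation and run cannot be told apart, and the contrasts of a batch share its vehicle wells. In batch 1 acetaminophen, chloramphenicol and ketoconazole were on the plate without vehicle wells. For their contrasts, plate cannot be told apart from rat, preparation and run either.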

How the results depend on the processing

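Of the 86 called pairs of a member and a contrast, with the minimum L2FC set aside, 50 kept their direction and their side of the threshold under every alternative that gave them a value. With wells summed per rat 58 pairs were called (17 up), and with a minimum absolute L2FC of 1 there were 40 (6 up, 34 down). With that minimum 4 members remained past the threshold at 10000 µM and 0 at 400 µM valproic acid, and with wells summed per rat 1 member did at 400 µM. Of the list genes called at 400 µM, 26 by the fit of wells, 16 were counted per rat. The cause was not tested beyond the fewer values and the added threshold of these settings. Of the 14 pairs that differed between the rats, 1 was called in opposite directions in the batches alone.

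Leaving the batch block out of the fit gave 79 called pairs, and 78 of the 86 pairs stayed called. Leaving out 1 replicate at a time gave between 80 and 87 called pairs, between 28 and 32 up and between 51 and 56 down, 7 to 7 members at 10000 µM and 3 to 4 at 400 µM valproic acid. Between the concentrations it gave 57 to 64 pairs in all and 6 to 6 for valproic acid, and for the lists 467 to 494 pairs, 31 to 35 at 10000 µM and 23 to 25 at 400 µM valproic acid. DESeq2 and RLE size factors each lost 1 of the 86 calls, library totals lost 6, and batch 1 alone and batch 2 alone called 80 and 89 pairs. Adding the probes of a gene gave no other value, since each member had 1.

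In batch 1 alone, Ass1 was at 0.011 for chloramphenicol at 450 µM and 0.16 for valproic acid at 10000 µM, Nags at 0.11 for WY14643 at 8 µM and Otc at -0.31 for doxorubicin at 0.08 µM, each with the other sign than in both batches. In batch 2 alone, Nags was at -0.040 (-0.092 with vehicle of the same plate) for indomethacin at 300 µM. Of the 5 genes with the highest r, 3 were shared with the ranks and 2 with batch 1 alone for Cps1, and 2, 1 and 2 with the ranks, batch 1 alone and batch 2 alone for Glul. Over groups other than valproic acid at 10000 µM, 4 were shared for Cps1 and 2 for Glul. The causes were not tested. With 1 rat per batch, differences between rats rest on 2 animals, and Otc, at 1 read in its lowest well, limits folds at the bottom.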
